A study of Pistacia vera with 20 samples.

Results

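The genes described here are 58 pistachio genes, of 39783 in the deposited table, whose descriptions name enzymes of cutin and wax synthesis. They were chosen by words: 3-ketoacyl-CoA synthase (KCS, or its protein domain), ECERIFERUM (CER), cytochrome P450 of the 86A and 77A subfamilies (CYP86A, CYP77A), HOTHEAD (HTH), fatty acyl-CoA reductase (FAR), long chain acyl-CoA synthetase (LACS) and glycerol-3-phosphate acyltransferase (GPAT). The words matched 64 genes, and 6 that match KCS20, CYP86A1, FAR3 or GPAT5 were left out by name. The set holds 17 KCS, 12 GPAT, 6 LACS, 6 FAR, 4 HTH, 3 CER, 2 CYP86A and 2 CYP77A genes. A further 6 are lysophosphatidate acyltransferases (LPAAT), taken in because the words for GPAT sit inside their name.

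RNA was sequenced from whole hulls (the exo-mesocarp, the fleshy layers around the shell) of Pistacia vera grown in a commercial orchard, in a study of cell wall change and hull split. At 133 days post anthesis (133 d) there were 3 libraries each of tattered Golden Hills, intact Golden Hills, cracked Lost Hills and intact Lost Hills hulls. At 91 days post anthesis (91 d) there were 4 libraries each of intact Golden Hills and intact Lost Hills hulls. Tattering was sampled in Golden Hills and cracking in Lost Hills, so the kind of split and the cultivar cannot be told apart. The labels number the libraries as biological replicates without saying whether they came from separate trees, so p-values measure the spread between these samples. In whole hulls, fewer cells of a type and less RNA per cell cannot be told apart.

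The plant cuticle is a polyester, cutin, filled and covered with wax, and it is made by the epidermis. For wax, KCS enzymes elongate fatty acids to very long chains, CER proteins help the last elongation steps or turn the products into alkanes, and FAR enzymes reduce acyl chains to alcohols. For cutin, LACS enzymes activate fatty acids, CYP86A and CYP77A enzymes hydroxylate them at the end or in the middle of the chain, HTH oxidizes the hydroxylated end, and land plant GPATs join the product to glycerol. The same families also serve suberin, pollen wall, membrane and storage lipids, and 13 of the 58 genes match membrane, plastid or peroxisomal enzymes (LPAAT, GPAT9, plastid GPAT, LACS6, LACS7, LACS9), which are described apart. Roles given below are those known in Arabidopsis thaliana unless another species is named, and gene names are those of the protein each pistachio gene matched.

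The libraries held 16116971 to 18609861 reads in genes. Replicate 2 of both 91 d groups stood apart in reads of genes otherwise found in the other cultivar. In replicate 2 of Lost Hills, 14 of 14 genes otherwise found in Golden Hills had more than 3 reads, and their median level was 36.9% of that in Golden Hills. In replicate 2 of Golden Hills, 12 of 12 genes otherwise found in Lost Hills did so, with a median of 27.1%, and in its replicate 3 there were 11 of 12, at 9.15%. The other 91 d libraries lay between 0 and 1.18%. These libraries were kept, and counts without replicate 2 of both groups are given beside the results. At 133 d, replicate 1 of both intact groups differed most from its group. Chi-square per gene on reads was 55.4 and 55.1 between it and the others in Golden Hills. Replicates 2 and 3 gave 8.44. In Lost Hills the values were 62.0 and 49.9, against 15.1. Both libraries were kept, and counts with single libraries left out are given below.

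The 58 genes summed to between 714 and 1066 FPKM per library (fragments scaled to gene length and library depth, so a level per length). Of them, 37 reached at least 1 FPKM in at least 3 libraries and were tested, 13 had reads but stayed under that level, with at most 35 reads in a library, and 8 had no read in any library. The families differed in how many members were in use: 6 of 6 LACS, 9 of 12 GPAT, 10 of 17 KCS, 5 of 6 LPAAT, 2 of 2 CYP86A, 1 of 2 CYP77A, 2 of 4 HTH, 2 of 6 FAR and 0 of 3 CER genes were tested. The genes without a read were a KCS2, a KCS5 and a KCS7 match, a pair of FAR2 matches, the CYP77A4 match and a pair of matches to RAM2, a GPAT known from Medicago truncatula for lipid supply to root fungi. The CER matches were CER26, CER26-like and CER2, cofactors of elongation past the chain lengths that KCS enzymes reach alone. CER26 was the highest of them, between 0.0719 and 1.35 FPKM over all libraries.

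Most of the level came from few genes. The LACS8 match (evm_TU_ptg000019l_1694, an acyl-CoA synthetase of the endoplasmic reticulum) averaged 173 FPKM in tattered and 133 FPKM in intact Golden Hills hulls at 133 d, and 115 FPKM in cracked and 111 FPKM in intact Lost Hills hulls. The LACS4 match (evm_TU_ptg000010l_218, known with LACS1 in wax and pollen coat lipid supply) averaged 142, 146, 121 and 137 FPKM in the same order of groups. Together they held 30.7% of the summed level. Next by mean level over all libraries came matches to peroxisomal LACS7 (50.6 FPKM), the membrane lipid enzyme LPAT2 (46.0 FPKM), the plastid GPAT PLSB (37.6 FPKM), LPAT4 (36.1 FPKM), a GPAT9 (35.4 FPKM), plastid LACS9 (34.6 FPKM), another GPAT9 (33.0 FPKM), KCS10 (32.5 FPKM) and the 2 KCS4 matches (25.7 and 23.9 FPKM). So 7 of the 12 most abundant genes match membrane, plastid or peroxisomal enzymes. KCS10, also known as FIDDLEHEAD and needed to keep epidermal surfaces from fusing, was the highest of the KCS genes. Of the genes that hydroxylate or oxidize cutin monomers, the highest were matches to CYP77A3 (10.5 FPKM) and HTH (evm_TU_ptg000021l_147, 9.07 FPKM).

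Most tested cutin monomer genes were lower in the older hulls. The CYP77A3 match (evm_TU_ptg000009l_811, named for a soybean protein of the mid-chain oxidase family) had 4.90, 3.86 and 4.56 FPKM in intact Golden Hills hulls at 133 d, against 20.9, 17.3, 18.4 and 18.1 FPKM at 91 d. In intact Lost Hills hulls it had 2.05, 1.89 and 3.19 FPKM at 133 d, against 18.7, 17.5, 31.0 and 17.4 FPKM at 91 d. The ages did not overlap in either cultivar. The log2 fold changes of 133 d over 91 d, on the scale log2(FPKM + 1), were -1.85 ± 0.20 in Golden Hills and -2.69 ± 0.20 in Lost Hills (SE; limma, Benjamini-Hochberg adjusted p = 1.49e-06 and 9.51e-08).

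The CYP86A22 match (evm_TU_ptg000010l_387, named for a petunia chain-end hydroxylase of stigma lipids) had 0.584, 0.360 and 0.533 FPKM in Golden Hills at 133 d, against 6.43, 5.38, 8.18 and 7.96 FPKM at 91 d. In Lost Hills it had 0.239, 0.119 and 0.360 FPKM at 133 d, against 6.04, 7.13, 6.94 and 5.48 FPKM at 91 d. By ratio of mean FPKM it was 14.2-fold lower at 133 d in Golden Hills and 26.7-fold lower in Lost Hills, with no overlap of ages (log2 fold changes -2.41 ± 0.16 and -2.58 ± 0.16, SE; limma adjusted p = 7.92e-09 and 1.93e-08). The HTH match evm_TU_ptg000010l_1272 averaged 0.378 ± 0.214 FPKM in Golden Hills at 133 d and 4.63 ± 0.761 FPKM at 91 d (SD, n = 3 and 4), and 0.148 ± 0.139 and 5.50 ± 2.38 FPKM in Lost Hills at 133 d and 91 d. It fell by 2.03 and 2.43 on the log2 scale (limma adjusted p = 1.36e-06 and 7.36e-07). The more abundant HTH match, evm_TU_ptg000021l_147, was not called in either cultivar, at 8.62 FPKM at 133 d against 6.76 FPKM at 91 d in Golden Hills and 11.3 against 9.10 FPKM in Lost Hills.

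The CYP86A2 match (evm_TU_ptg000019l_420), named for the hydroxylase of cutin also known as ATT1, also fell. Its mean was 0.935 ± 0.342 FPKM in Golden Hills at 133 d and 2.06 ± 0.293 FPKM at 91 d, and 0.318 ± 0.0671 and 2.10 ± 0.438 FPKM in Lost Hills at 133 d and 91 d (SD, n = 3 and 4). The log2 fold changes were -0.67 ± 0.18 and -1.22 ± 0.18 (SE; limma adjusted p = 0.00554 and 7.48e-05). Thus 4 of the 5 tested cutin monomer genes were called lower at 133 d in each cultivar, where 22.1% of all genes were called lower in Golden Hills and 15.7% in Lost Hills, and the CYP86A22 and HTH matches among them passed the level filter through 91 d libraries alone, so that they had to be higher there. Marker genes of other tissues also moved with age. The 26 vascular genes summed to 384 ± 77.3 FPKM at 133 d and 559 ± 86.6 FPKM at 91 d in Golden Hills, and to 576 ± 53.4 and 707 ± 78.8 FPKM in Lost Hills at 133 d and 91 d (SD, n = 3 and 4), without overlap of ages in either. The 25 kernel storage genes summed to 26.7 ± 2.80 FPKM at 133 d and 78.9 ± 18.1 FPKM at 91 d in Golden Hills, without overlap, and to 43.3 ± 9.28 and 77.3 ± 29.0 FPKM in Lost Hills at 133 d and 91 d, which overlap. The 12 epidermis genes summed to 39.5 ± 3.29 FPKM at 133 d and 32.7 ± 0.782 FPKM at 91 d in Golden Hills, without overlap, and to 32.2 ± 4.16 and 32.1 ± 3.03 FPKM in Lost Hills at 133 d and 91 d. Their part in the age changes of the cutin and wax genes was not tested.

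**Figure D1:**
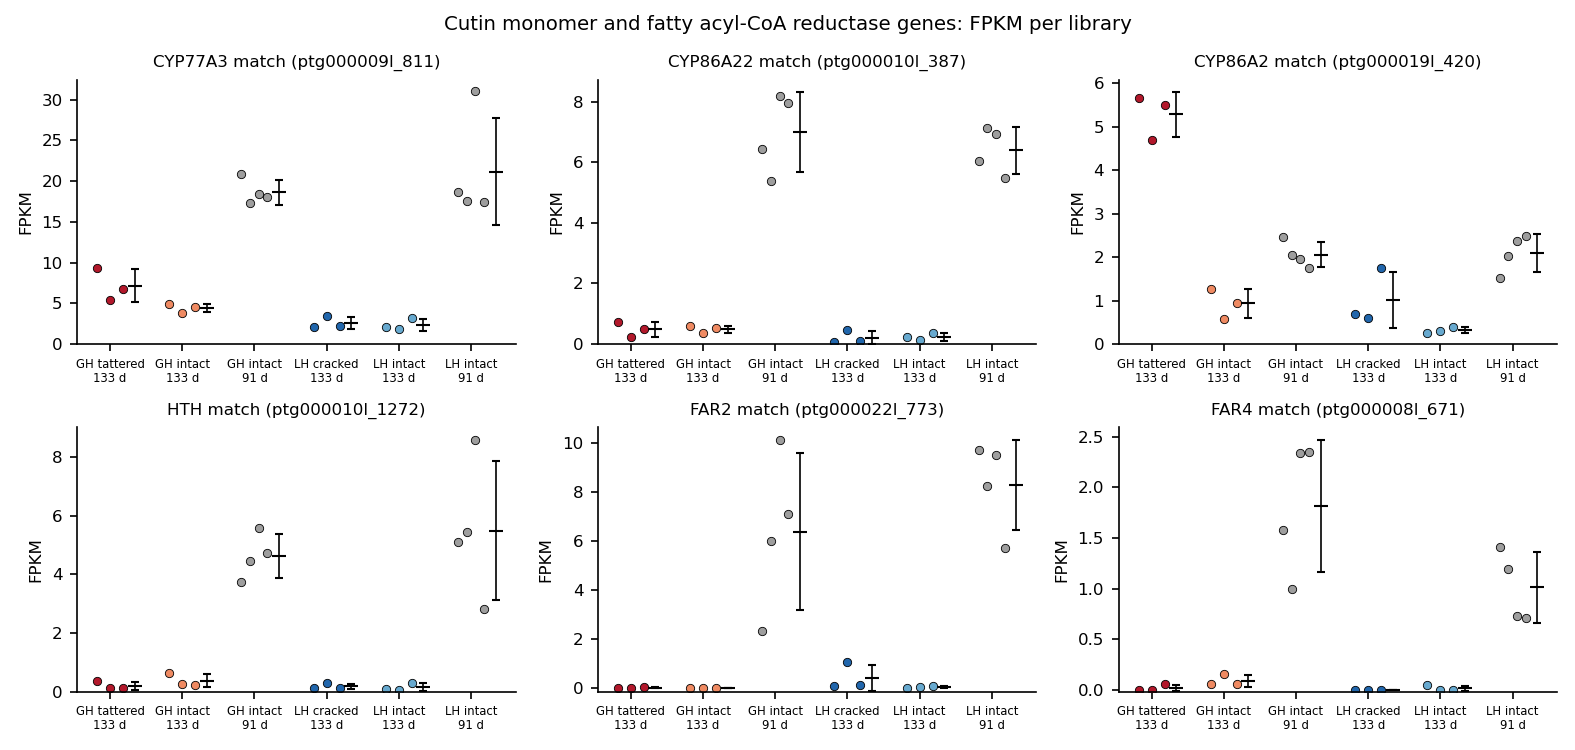
FPKM of 6 genes of cutin monomer and fatty alcohol synthesis in each of the 20 libraries, by group; points are libraries and the bar beside them is the mean with its SD (GH, Golden Hills; LH, Lost Hills; d, days post anthesis). In 5 of the panels both cultivars are high at 91 d and low in every 133 d group; CYP86A2 is also high, between 4.69 and 5.66 FPKM, in tattered Golden Hills hulls.

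Both tested FAR genes were at or near 0 in intact hulls of 133 d. The FAR2 match evm_TU_ptg000022l_773 (FAR2, also called MALE STERILITY 2, makes alcohols for the pollen wall) had 0 reads in the intact Golden Hills libraries of 133 d, against 2.33, 6.01, 10.1 and 7.11 FPKM at 91 d. With a floor of 3 reads per library this is at least 73.9-fold lower. In Lost Hills it had 0, 0.0531 and 0.103 FPKM at 133 d, against 9.71, 8.25, 9.53 and 5.73 FPKM at 91 d. The FAR4 match evm_TU_ptg000008l_671 (FAR4 makes alcohols of suberin) averaged 0.0892 FPKM at 133 d and 1.82 FPKM at 91 d in Golden Hills. In Lost Hills it had 1 read in the 3 intact libraries of 133 d and 85 reads in the 4 libraries of 91 d, a ratio of 64.4 (95% counting interval 11.6 to 2544). Both were called lower in both cultivars (limma adjusted p between 1.16e-06 and 3.38e-04), and both passed the filter through 91 d libraries alone. The FAR5 match, 210 bases long and 388 bases from FAR4 on the same contig, was not tested. It had at most 4 reads in a library, all of them at 91 d.

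KCS genes moved both ways. The KCS1 match (evm_TU_ptg000019l_614; KCS1 elongates the chains of wax) had 5.74, 9.73 and 11.9 FPKM in intact Golden Hills at 133 d, against 0.119, 0.0747, 0.142 and 0.206 FPKM at 91 d. In intact Lost Hills it had 1.41, 14.2 and 13.2 FPKM at 133 d, against 0.558, 0.257, 0.767 and 0.547 FPKM at 91 d. Replicate 1 of intact Lost Hills at 133 d was the low one, and the ages still did not overlap. The log2 fold changes were 3.11 ± 0.46 and 2.40 ± 0.46 (SE; limma adjusted p = 3.49e-05 and 7.86e-04), and without that replicate the Lost Hills value was 3.27. KCS1 and the KCS12 match passed the filter through 133 d libraries alone, so that they had to be higher there. The KCS12 match rose in both cultivars too, by 0.89 and 0.92 on the log2 scale with overlapping ages in Lost Hills, to 2.58 FPKM in Golden Hills at 133 d against 0.950 FPKM at 91 d, and to 2.18 FPKM in Lost Hills at 133 d against 0.566 FPKM at 91 d. The KCS12 call was lost without replicate 3 of 133 d in Golden Hills (adjusted p = 0.0697) and without replicate 2 or 3 of 133 d or replicate 1 of 91 d in Lost Hills (0.115, 0.0912 and 0.0524). In Golden Hills the KCS10 match was higher at 133 d (38.6 ± 9.29 against 23.0 ± 4.08 FPKM, SD, n = 3 and 4; log2 fold change 0.71, limma adjusted p = 0.0166), a call lost without replicate 2 or 3 of 133 d (0.0703 and 0.0806). In Lost Hills KCS10 averaged 27.6 ± 9.90 FPKM at 133 d and 29.9 ± 5.50 FPKM at 91 d and was not called, while the test of the difference between cultivars gave an adjusted p of 0.148.

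A KCS19 and a KCS11 match were called lower at 133 d in Golden Hills. The KCS19 match (evm_TU_ptg000009l_556) had 16.2, 11.2 and 14.6 FPKM at 133 d, against 36.4, 32.4, 33.8 and 29.2 FPKM at 91 d (log2 fold change -1.19 ± 0.26, SE; limma adjusted p = 0.00105). The KCS11 match evm_TU_ptg000001l_1455 averaged 2.19 ± 0.517 FPKM at 133 d and 6.27 ± 1.96 FPKM at 91 d (-1.16 ± 0.27; adjusted p = 0.00194). In Lost Hills the age groups of both genes overlapped and neither was called. A second KCS11 match, evm_TU_ptg000001l_1817, went the other way in Golden Hills, with 11.5 ± 1.21 FPKM at 133 d and 8.60 ± 1.06 FPKM at 91 d (0.39, adjusted p = 0.0343). That call was lost with TPM (0.24, adjusted p = 0.203) and without replicate 2 or 3 of 133 d or replicate 1, 2 or 4 of 91 d (adjusted p between 0.0504 and 0.111).

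The KCS6 match (evm_TU_ptg000024l_491, also called CUT1, the main condensing enzyme of stem wax chains) was called in opposite directions in the cultivars. It had 15.5, 17.8 and 21.6 FPKM in intact Golden Hills at 133 d, against 10.6, 8.86, 11.3 and 12.2 FPKM at 91 d. In intact Lost Hills it had 4.44, 8.87 and 8.52 FPKM at 133 d, against 10.7, 10.7, 12.9 and 11.4 FPKM at 91 d. The cultivars thus lay together at 91 d and apart at 133 d. The log2 fold changes of age were 0.71 ± 0.18 and -0.63 ± 0.18 (SE; limma adjusted p = 0.00425 and 0.0144), and the difference between them was 1.34 ± 0.26 (adjusted p = 0.00863). KCS6 was the 1 member of 37 called for this difference, against 3.29% of all genes tested (2.05% higher and 1.24% lower). The fall in Lost Hills rested on replicate 1 of 133 d: without it the value was -0.35 and the adjusted p 0.102.

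**Figure D2:**
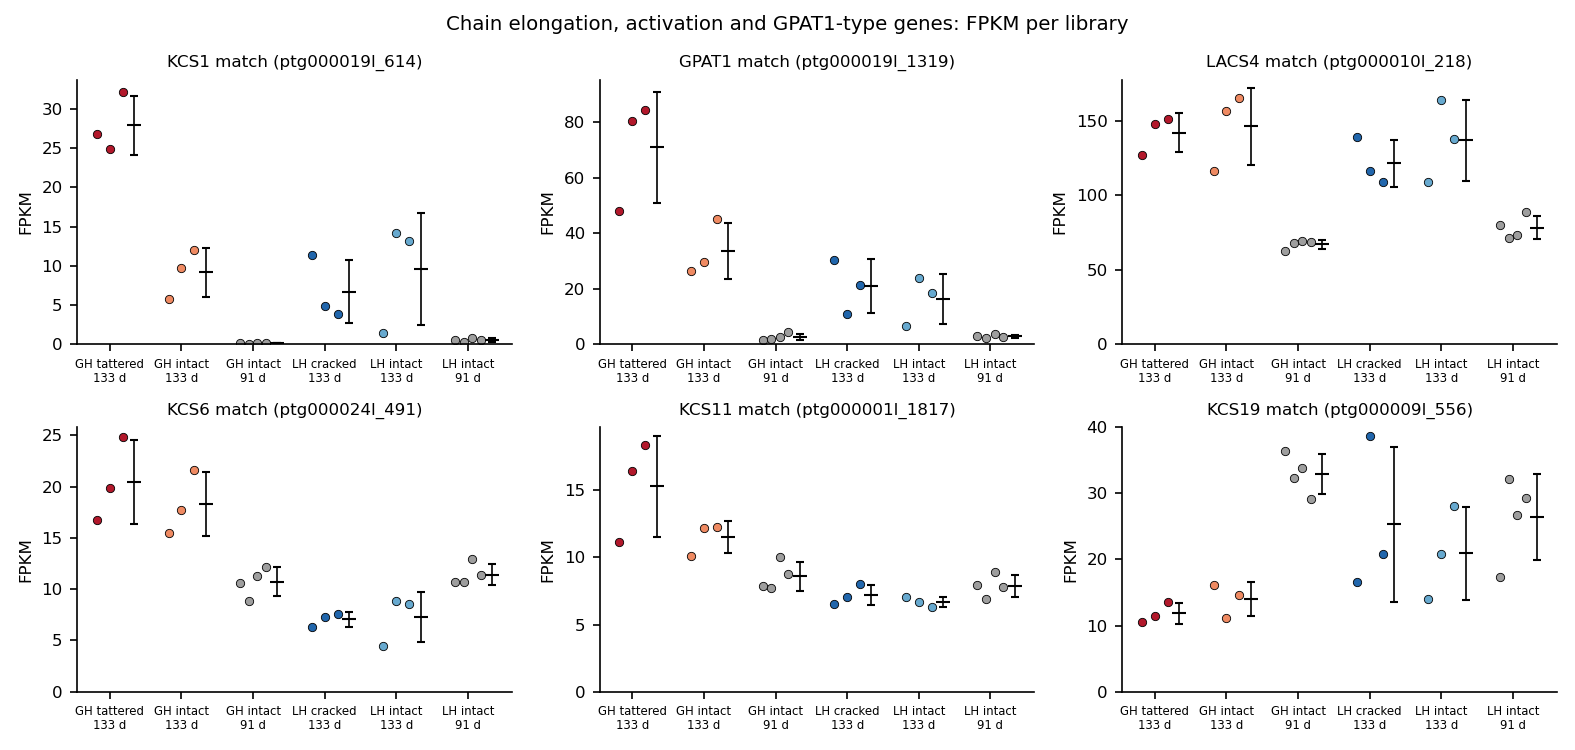
FPKM of 5 genes of chain elongation and activation and of 1 GPAT1 match in each library, by group; points are libraries and the bar beside them is the mean with its SD. KCS1, GPAT1 and LACS4 are higher at 133 d in both cultivars, and KCS6 is higher at 133 d in Golden Hills and lower in Lost Hills.

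Of the 3 LACS genes not named as plastid or peroxisomal forms, 1 was called with age in each cultivar. Of the 5 tested GPAT genes outside membrane lipid synthesis, 2 were called in Golden Hills and 3 in Lost Hills. Of all genes tested, 45.3% were called in Golden Hills and 31.7% in Lost Hills. Counts this small do not set these LACS and GPAT genes apart from other genes. LACS4 had 116, 157 and 165 FPKM in intact Golden Hills at 133 d, against 62.2, 67.7, 69.4 and 68.4 FPKM at 91 d. In Lost Hills it had 109, 163 and 137 FPKM at 133 d, against 79.9, 71.4, 73.0 and 88.4 FPKM at 91 d. The ages did not overlap in either cultivar (log2 fold changes 1.10 ± 0.14 and 0.78 ± 0.14, SE; limma adjusted p = 7.87e-06 and 4.62e-04). LACS8, and the LACS1 match of wax and cutin supply, were not called in either cultivar. A GPAT1 match, evm_TU_ptg000019l_1319 (GPAT1 is known from pollen development), rose as well, with 26.4, 29.5 and 45.2 FPKM in Golden Hills at 133 d against 1.59, 1.75, 2.60 and 4.23 FPKM at 91 d. In Lost Hills GPAT1 had 6.40, 24.0 and 18.3 FPKM at 133 d, against 2.95, 2.27, 3.47 and 2.45 FPKM at 91 d (log2 fold changes 3.31 ± 0.38 and 2.03 ± 0.38; adjusted p = 2.34e-06 and 6.51e-04). The GPAT8 match (evm_TU_ptg000019l_418, a cutin GPAT) fell in Lost Hills, to 3.51 ± 0.580 FPKM at 133 d against 5.38 ± 0.749 FPKM at 91 d (-0.50, adjusted p = 0.0135; 0.0731 without replicate 2 of 133 d), and in Golden Hills it averaged 4.62 ± 0.529 FPKM at 133 d and 5.96 ± 1.19 FPKM at 91 d and was not called.

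Over the whole set, 20 of 37 tested members were called between the ages in Golden Hills, 9 higher and 11 lower, where 45.3% of all genes tested were called, 23.2% higher and 22.1% lower. In Lost Hills 18 were called, 6 higher and 12 lower, where 31.7% of all genes were called, 16.0% higher and 15.7% lower. The members' share was 54.1% in Golden Hills and 48.6% in Lost Hills, and 7 of the 37 passed the filter through 1 age alone. These were KCS1, KCS12 and LPAT5 through 133 d, and CYP86A22, HTH evm_TU_ptg000010l_1272, FAR2 and FAR4 through 91 d. In Golden Hills the members' share was thus near that of all genes. The medians over tested members were -0.08 and -0.17 on the log2 scale, against -0.03 and 0.00 over all genes. In both cultivars 5 members were called higher and 8 lower: the risers were KCS1, KCS12, LACS4, GPAT1 and LPAT2, and the fallers were CYP77A3, CYP86A22, CYP86A2, HTH, FAR2, FAR4, a GPAT9 and a second GPAT1 match. The calls of that GPAT1 match, evm_TU_ptg000001l_3177, were lost without replicate 1 of 133 d or replicate 2 of 91 d in Golden Hills and without replicate 2 or 3 of 133 d or replicate 1 of 91 d in Lost Hills (adjusted p between 0.0508 and 0.0877). The share of all genes called in both cultivars was not counted. Of the members called in both, KCS1, KCS12, CYP86A22, HTH, FAR2 and FAR4 passed the filter through 1 age alone. Their direction was thus set by the filter and is no sign of agreement between cultivars. Without replicate 2 of both 91 d groups 18 and 16 members were called in Golden Hills and Lost Hills, where 7810 and 5017 of all 19716 genes were called. Differences of low genes are understated on this scale: with a pseudocount of 0.1 the log2 fold changes of FAR2 were -5.84 and -5.82, those of KCS1 5.26 and 3.45, and those of CYP86A22 -3.58 and -4.32 in Golden Hills and Lost Hills.

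**Figure D3:**
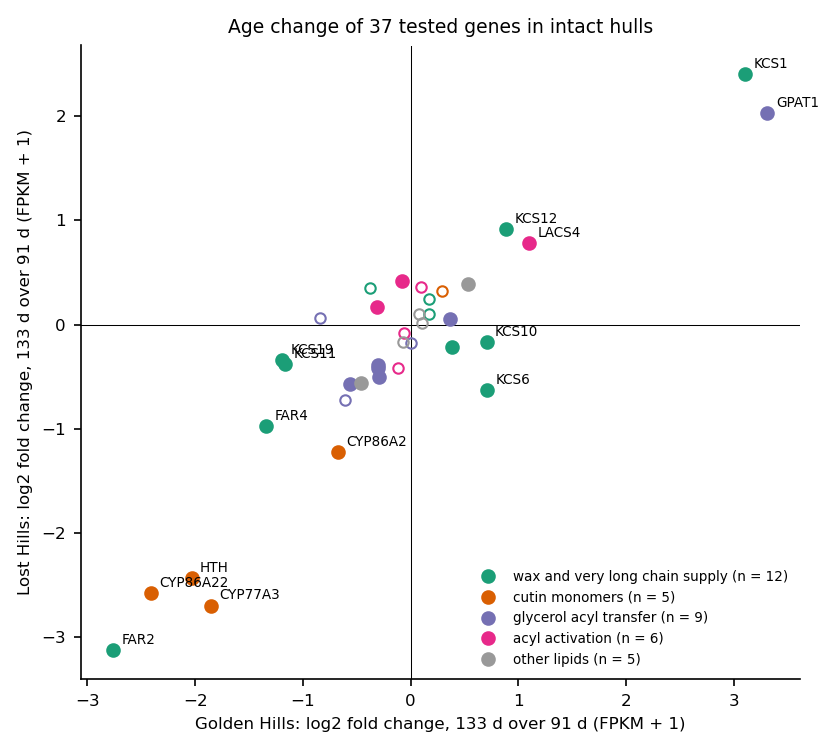
Log2 fold change of 133 d over 91 d on the scale log2(FPKM + 1) for the 37 tested members, in Golden Hills (x axis) and Lost Hills (y axis), which share no library; each point is a gene, coloured by role, filled where called in at least 1 cultivar. The cutin monomer genes CYP77A3, CYP86A22, CYP86A2 and 1 HTH match and both FAR genes lie at lower left, the other HTH match, which was not called, lies above 0 in both cultivars, KCS1 and GPAT1 at upper right, and KCS6 is the called gene at lower right that was called in both cultivars.

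Of the 12 tested members matching membrane, plastid or peroxisomal enzymes, 4 were called with age in Golden Hills and 5 in Lost Hills, where 45.3% and 31.7% of all genes were called, with called changes between -0.56 and 0.53 on the log2 scale. LPAT2 was higher at 133 d in both cultivars, at 55.8 ± 7.65 against 38.1 ± 1.70 FPKM in Golden Hills and 47.1 ± 4.18 against 35.6 ± 2.33 FPKM in Lost Hills (SD, n = 3 and 4). A GPAT9 match (evm_TU_ptg000020l_1399, the GPAT of membrane and storage lipid synthesis) was lower in both, by 0.30 and 0.38 on the log2 scale, calls lost without replicate 2 or 3 of 133 d or replicate 2, 3 or 4 of 91 d in Golden Hills (adjusted p up to 0.219) and without replicate 3 of 133 d in Lost Hills (0.0812). Peroxisomal LACS7 was lower in Golden Hills (-0.32, lost without replicate 2 or 3 of 133 d or replicate 1 or 2 of 91 d, with adjusted p up to 0.122) and LACS6, the other peroxisomal form, higher in Lost Hills (0.42).

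A neighbouring pair of cutin genes and a wax KCS were higher in tattered hulls. These tests use the same intact Golden Hills libraries of 133 d as the tests of age. In tattered Golden Hills hulls the GPAT8 match had 21.9, 20.3 and 24.2 FPKM, against 4.55, 4.13 and 5.18 FPKM in intact hulls of the same cultivar and age. The CYP86A2 match had 5.66, 4.69 and 5.51 FPKM in tattered hulls, against 1.27, 0.585 and 0.951 FPKM in intact hulls. The KCS1 match had 26.8, 24.8 and 32.2 FPKM in tattered hulls, against 5.74, 9.73 and 11.9 FPKM in intact hulls. Tattered and intact libraries did not overlap in any of the 3 genes. By ratio of means GPAT8 was 4.80-fold higher (2.05 ± 0.15 on the log2 scale, with its SE; limma adjusted p = 5.70e-08), CYP86A2 5.66-fold higher (1.71 ± 0.19; adjusted p = 9.94e-06) and KCS1 3.06-fold higher (1.56 ± 0.49; adjusted p = 0.0389).

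These 3 were the members called in tattered hulls, 3 of 37 (8.11%), where 16.6% of all genes tested were called, 9.29% higher and 7.35% lower. GPAT8 and CYP86A2 were called under each alternative that tested them. KCS1 was not. Its adjusted p was 0.0803 with a pseudocount of 0.1, 0.0651 with TPM, 0.0662 with quantile scaling and 0.0595 without a filter. It was 0.0567 without replicate 2 of both 91 d groups. Leaving out single libraries of these groups gave up to 0.141 (without replicate 1 of intact Golden Hills). Only without replicate 3 of intact Golden Hills did such a fit keep the call (0.047). The call held under the other alternatives. Other members were higher in tattered hulls without passing the test. GPAT1 (evm_TU_ptg000019l_1319) had 48.0, 80.4 and 84.5 FPKM in tattered and 26.4, 29.5 and 45.2 FPKM in intact hulls (log2 fold change 1.05 ± 0.41, adjusted p = 0.0868). CYP77A3 had 9.38, 5.45 and 6.71 FPKM in tattered and 4.90, 3.86 and 4.56 FPKM in intact hulls (0.56 ± 0.22, adjusted p = 0.0851). The genes that passed the filter through 91 d alone, CYP86A22, HTH evm_TU_ptg000010l_1272, FAR2 and FAR4, averaged at most 0.485 FPKM in tattered hulls.

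The GPAT8 and CYP86A2 matches lie on the same contig, ptg000019l, at 2617153 to 2620459 on the plus strand and 2628375 to 2631064 on the minus strand, 7916 bases apart. The assembly has no build name in the sources used here. A single gene lies between them, evm_TU_ptg000019l_419, named for a plastid ascorbate transporter and picked here after its values were seen. It went the other way, with 14.4, 10.9 and 13.1 FPKM in tattered and 22.2, 24.2 and 22.7 FPKM in intact hulls (log2 fold change -0.81 ± 0.16, SE; limma adjusted p = 0.00271). Other members also lie close together. The LACS1 match and a GPAT3 match on the same contig are 9962 bases apart with 2 genes between them. Another GPAT3 and a GPAT1 match are 1248 bases apart. Their gene lengths are 525 and 888 bases, and whether they are separate genes was not tested. A pair of FAR2 matches is 10231 bases apart. Of that FAR2 pair, evm_TU_ptg000022l_774 had no read, and how the counting shared reads between such copies is not stated.

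**Figure D4:**
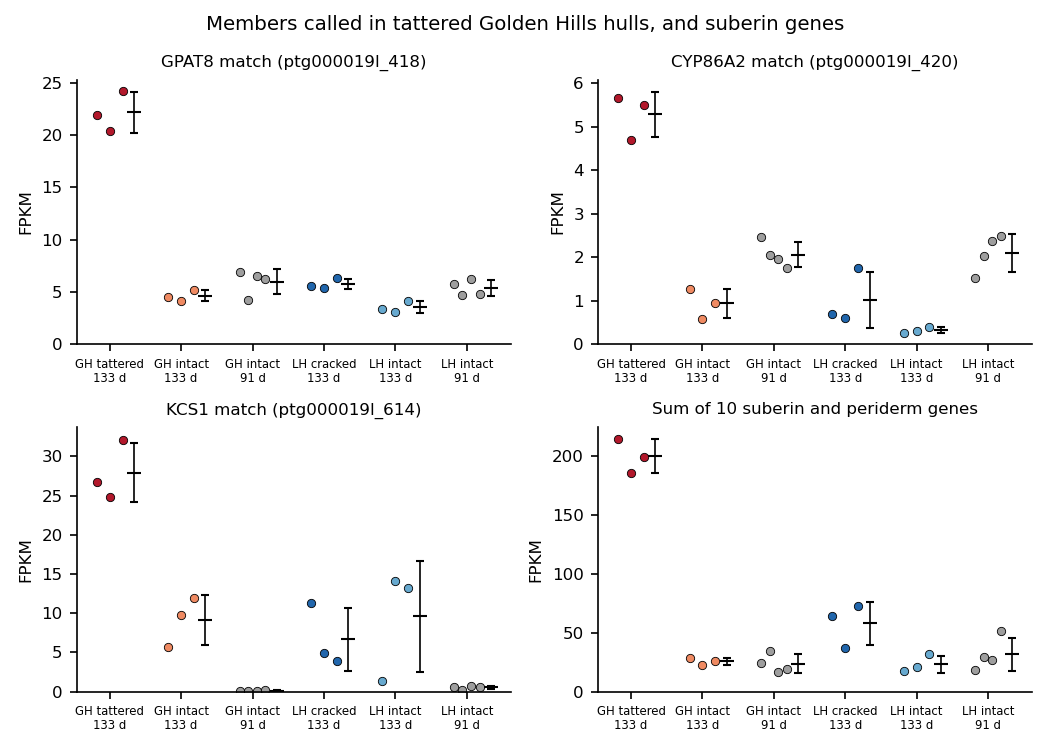
FPKM of the 3 members called in tattered Golden Hills hulls, and the summed FPKM of 10 suberin and periderm genes, in each library by group; points are libraries and the bar beside them is the mean with its SD. The tattered libraries lie above the other 5 groups in each panel, and the cracked Lost Hills libraries lie between 37.1 and 72.4 FPKM in the suberin panel.

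Cracking of Lost Hills hulls gave no call among the 37 tested members by limma, where 1.56% of all genes were called, 1.48% higher and 0.0812% lower. At an unadjusted p under 0.05 there were 3 members, and limma's voom on the recovered reads also called 0. GPAT8 had 5.53, 5.37 and 6.31 FPKM in cracked hulls, against 3.36, 3.03 and 4.15 FPKM in intact hulls, without overlap. Its log2 fold change was 0.58 (95% interval 0.26 to 0.91, adjusted p = 0.0738), and it was called, at 0.0333, when replicate 2 of both 91 d groups, which enter the pooled spread, was left out; over all alternatives the adjusted p lay between 0.0333 and 0.564. CYP86A2 had 0.692, 0.594 and 1.75 FPKM in cracked and 0.262, 0.300 and 0.393 FPKM in intact hulls (0.57, 95% interval 0.16 to 0.97, adjusted p = 0.23). KCS1 had 11.3, 4.89 and 3.85 FPKM in cracked and 1.41, 14.2 and 13.2 FPKM in intact hulls, which overlap (-0.19, 95% interval -1.22 to 0.85).

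The difference of the split changes, tattering in Golden Hills minus cracking in Lost Hills, was called for GPAT8, the 1 member of 37 (0.994% of all genes were called, 0.771% higher and 0.223% lower), at 1.46 ± 0.22 on the log2 scale (SE; limma adjusted p = 0.00159). For CYP86A2 it was 1.15 ± 0.27 with an adjusted p of 0.052, and for KCS1 1.74 ± 0.70 with an adjusted p of 0.259. Both turn with the setting. CYP86A2 was called with quantile scaling (adjusted p = 0.0477), with array weights (0.00958), without replicate 1 of intact Golden Hills (0.0389) and without replicate 3 of cracked Lost Hills (0.00504), and its adjusted p reached 0.41 with voom. KCS1 was called with array weights (0.0124) and without replicate 1 of intact Lost Hills (2.61, adjusted p = 0.0036), and its adjusted p reached 0.504 with a replicate block. Over the tested members the median change was 0.19 with tattering, where all genes had 0.01, and 0.05 with cracking, where all genes had -0.01.

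Suberin genes moved with the split. Their list holds the names left out of the members, KCS20, CYP86A1, FAR3 and GPAT5, and omega-hydroxypalmitate O-feruloyl transferase. Whether each of them serves suberin alone in the hull was not tested. The 10 suberin and periderm genes, 1 of them at 0 in all libraries, summed to 214, 185 and 199 FPKM in tattered Golden Hills and to 28.4, 22.6 and 26.3 FPKM in intact Golden Hills hulls at 133 d, and to 64.0, 37.1 and 72.4 FPKM in cracked and 17.3, 20.7 and 31.5 FPKM in intact Lost Hills hulls. Of their 7 tested genes 5 were called higher with tattering and 4 with cracking, where 9.29% and 1.48% of all genes were called higher. The GPAT5 match among them, named for a suberin enzyme, averaged 42.4 FPKM in tattered and 0.0282 FPKM in intact Golden Hills hulls. A gene that passed the level filter through split hulls alone had to be higher in them. How many of the 7 tested genes did so was not counted. The counts called higher are therefore no test against the share of all genes. The 12 epidermis genes, 3 of them at 0 in all libraries, had sums of which the lowest, median and highest were 36.3, 46.7 and 50 FPKM in tattered, against 36.7, 38.7 and 43.1 FPKM in intact Golden Hills, and they summed to between 27.4 and 39.3 FPKM in cracked and between 28.3 and 36.6 FPKM in intact Lost Hills. The epidermis sums thus overlapped between split and intact hulls, and the suberin sums did not. The part of suberin-forming tissue in the rise of GPAT8, CYP86A2 and KCS1 was not tested.

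**Figure D5:**
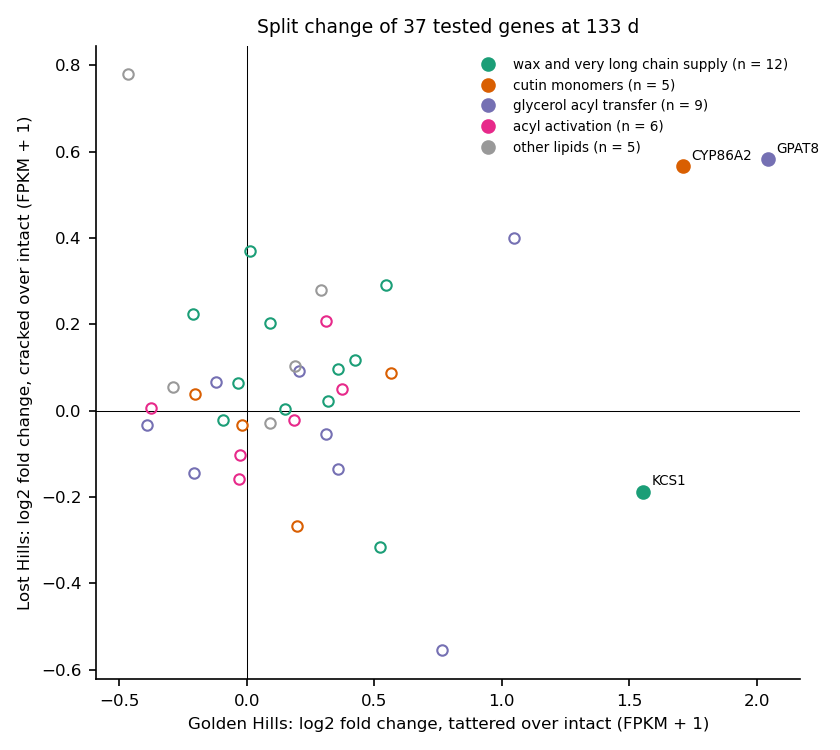
Log2 fold change on the scale log2(FPKM + 1) for the 37 tested members at 133 d, tattered over intact in Golden Hills (x axis) and cracked over intact in Lost Hills (y axis), which share no library; each point is a gene, coloured by role, filled where called. The 3 filled points at right, GPAT8, CYP86A2 and KCS1, were called with tattering and none of the points with cracking.

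Intact hulls of the cultivars differed in few members, 5.4% at 91 d and 10.8% at 133 d. These shares do not set the members apart from all genes, at 5.1% and 16.8%. At 91 d, 2 of 37 members were called between Golden Hills and Lost Hills, where 5.1% of all genes were called, 2.55% higher and 2.56% lower, and both were KCS genes. The KCS4 match evm_TU_ptg000020l_2438 had 29.5, 29.6, 33.0 and 46.1 FPKM in Golden Hills, against 12.1, 24.9, 15.6 and 22.0 FPKM in Lost Hills (log2 fold change 0.88 ± 0.24, SE; limma adjusted p = 0.0351). The KCS11 match evm_TU_ptg000001l_1455 had 5.24, 4.42, 6.51 and 8.92 FPKM in Golden Hills, against 2.57, 3.41, 3.01 and 2.23 FPKM in Lost Hills (0.91 ± 0.25; adjusted p = 0.0416). In both genes the highest Lost Hills library was replicate 2, the one that holds reads of Golden Hills genes. Without replicate 2 of both groups 3 members were called, with FAR4 added, where 1116 of all 19716 genes tested were called. Both calls were lost when replicate 3 or 4 of Golden Hills or replicate 1 or 3 of Lost Hills was left out, with adjusted p up to 0.163.

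At 133 d, 4 of 37 members were called, 3 higher and 1 lower in intact Golden Hills, where 16.8% of all genes were called, 8.88% higher and 7.91% lower. KCS6 averaged 18.3 ± 3.09 FPKM in Golden Hills and 7.28 ± 2.46 FPKM in Lost Hills (SD, n = 3 each), a difference of 1.26 ± 0.20 on the log2 scale (SE; limma adjusted p = 2.82e-04). KCS11 evm_TU_ptg000001l_1817 had 10.1, 12.2 and 12.3 FPKM in Golden Hills, against 7.03, 6.65 and 6.27 FPKM in Lost Hills (0.71 ± 0.15; adjusted p = 0.0038). CYP77A3 averaged 4.44 FPKM in Golden Hills and 2.38 FPKM in Lost Hills (0.70 ± 0.22; adjusted p = 0.0338), a call lost without replicate 1 or 3 of intact Golden Hills or replicate 1 or 2 of intact Lost Hills. LACS6 was the lower one, at 17.7 ± 1.95 FPKM in Golden Hills and 26.2 ± 1.70 FPKM in Lost Hills (-0.55 ± 0.12; adjusted p = 0.0043). The split hulls of each cultivar entered these tests through the pooled spread alone. They lay alike in KCS6, with 16.7, 19.9 and 24.8 FPKM in tattered Golden Hills and 6.25, 7.29 and 7.56 FPKM in cracked Lost Hills.

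Among 94 other genes of the cuticle pathway, 45 were tested. They cover acyl supply, elongase partners, alkane formation, wax esters, cutin assembly, export, lipid transfer and regulators. With tattering 16 of the 45 were called higher and 1 lower, where 9.29% of all genes were called higher and 7.35% lower. With cracking 8 were called higher and 0 lower, where 1.48% of all genes were called higher and 0.0812% lower. The lower one was acetyl-CoA carboxylase ACC1, which makes malonyl-CoA for elongation, at 59.0 ± 11.6 FPKM in tattered and 94.0 ± 22.7 FPKM in intact hulls (-0.66; limma adjusted p = 0.0166, lost without any of 3 single libraries). Lipid transfer proteins with a GPI anchor, a type known to carry wax to the surface, made up most of the risers, with 10 of 18 tested called higher in tattered and 7 in cracked hulls. An LTPG5 match, evm_TU_ptg000019l_3180, had 362, 452 and 391 FPKM in tattered and 2.32, 1.03 and 1.32 FPKM in intact Golden Hills hulls, and 24.5, 23.9 and 32.3 FPKM in cracked and 1.61, 0 and 7.55 FPKM in intact Lost Hills hulls. Its log2 fold changes were 7.32 ± 0.47 and 3.30 ± 0.47 (SE; adjusted p = 7.42e-09 and 5.35e-04). The cracking value was not called when only the groups compared were fitted (adjusted p = 0.355), and it was 4.10 without replicate 3 of intact Lost Hills. The LTG21 match evm_TU_ptg000022l_2036 averaged 148 ± 7.07 FPKM in tattered and 0.174 ± 0.0848 FPKM in intact Golden Hills hulls (SD, n = 3 each). Among intact hulls it reached 1 FPKM only in replicate 3 of Lost Hills at 133 d (3.40 FPKM). It thus passed the level filter through split hulls and had to be higher in them. How many others of the 45 did so was not counted. The counts of the 45 called higher with the split are therefore no test against the share of all genes.

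With age, 12 of the 45 were called higher and 13 lower at 133 d in Golden Hills, a share of 55.6% where 45.3% of all genes were called. In Lost Hills 7 were called higher and 12 lower, a share of 42.2% where 31.7% of all genes were called. The elongase reductase match KCR1 evm_TU_ptg000024l_148 had 5.88, 3.04 and 2.07 FPKM in Golden Hills at 133 d, against 74.7, 126, 169 and 114 FPKM at 91 d, and 4.58, 7.70 and 16.2 FPKM in Lost Hills at 133 d, against 83.7, 100.2, 55.2 and 72.9 FPKM at 91 d. It fell by 4.74 and 3.04 on the log2 scale (limma adjusted p = 1.39e-05 and 0.00172). Of the FATB thioesterase matches, which release saturated fatty acids from the plastid, evm_TU_ptg000021l_832 was lower at 133 d (-4.90 and -4.26) and evm_TU_ptg000024l_1644 higher (3.36 and 3.00) in Golden Hills and Lost Hills. The CER3 match evm_TU_ptg000001l_292, of the alkane-forming complex and picked after its values were seen, had 103, 117 and 142 FPKM in intact Golden Hills at 133 d, against 8.71, 10.2, 16.7 and 21.6 FPKM at 91 d. In intact Lost Hills CER3 had 44.6, 40.9 and 63.8 FPKM at 133 d, against 15.3, 11.5, 18.4 and 15.6 FPKM at 91 d. It was called higher with age in both (3.06 and 1.64), and the difference was called as well (1.42 ± 0.35, adjusted p = 0.0304). The 6 matches to CER1, its partner in alkane formation, stayed at or under 0.123 FPKM in every library.

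Cultivars differed at 133 d in 10 of the 45 pathway genes, 7 higher and 3 lower in intact Golden Hills, and at 91 d in 3, shares of 22.2% and 6.67% near the 16.8% and 5.1% of all genes. A match to DCR, an acyltransferase needed for cutin polymer formation (evm_TU_ptg000027l_329), had 408, 377 and 341 FPKM in Golden Hills at 133 d, against 87.6, 85.3 and 158 FPKM in Lost Hills (1.81 ± 0.37, SE; limma adjusted p = 0.00271). A wax ester synthase match, WSD5 (evm_TU_ptg000001l_3851), had 0.409, 0.288 and 0.033 FPKM in Golden Hills and 27.9, 10.5 and 6.03 FPKM in Lost Hills (-3.43 ± 0.47; adjusted p = 8.35e-05). The 8 matches to known regulators of cuticle synthesis stayed under the level filter.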

How the data were processed

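Messenger RNA was selected on poly-T beads and libraries were built with dUTP second strands by a service company, per the labels' protocols. The submitters' processing notes name HISAT2 2.0.5, StringTie 1.3.3b and featureCounts 1.5.0-p3, with no roles or settings; the genome build is not given in the sources used here. The authors deposited FPKM values per gene and library, with gene lengths and protein matches, from which gene names were taken. Times gene length, 100% of values were whole multiples of 1 read within 0.01, which gave depths of 16116971 to 18609861 reads per library. Reads carry no molecular identifiers, so intervals and the floor of 3 reads cover counting error only.

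The 19716 genes that reached 1 FPKM in 3 or more libraries were tested with limma 3.58.1 in R 4.3.3 (eBayes with trend) on log2(FPKM + 1), in 1 fit of 20 libraries in 6 groups without a replicate block. Tests were two-sided, and calls were made at a Benjamini-Hochberg adjusted p under 0.05 over all genes of a comparison. There were 8 comparisons, 2 of them interactions. The procedure was tested on simulated data. Genes named are the 12 most abundant members, the highest of each family, up to 5 largest rises and falls per pair of groups and up to 3 per direction per interaction; members outside this rule complete a family or a count, and were chosen after their values were seen. Of the pathway list the 2 largest rises and falls were taken. Members, lists and rules were chosen with earlier results of these data known, and CER1 and CER3, named aldehyde decarbonylases in the table, were put in the pathway list. Alternatives were other pseudocounts, filters, scalings (TPM, quantile), array weights, voom, only the groups compared, a replicate block and single libraries left out.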

Additional observations from a re-analysis of the deposited data

Results flagged for a closer look

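In 54 groups of 4 libraries (27 members at 91 d), a library far from the other 3 was found in 2, and chance gives about 1 in 20. The LACS8 match had 126.1 FPKM in replicate 2 of Lost Hills at 91 d, against 154 to 156.9 FPKM in the other 3; this is a library that holds reads of Golden Hills genes. The CYP77A3 match had 31.0 FPKM in replicate 3 of the same group, against 17.4 to 18.7 FPKM in the others. The GPAT8 match differed between the split changes, tattering in Golden Hills minus cracking in Lost Hills, by 1.46 on the log2 scale (limma adjusted p = 0.00159). The KCS6 match differed between the age changes, Golden Hills minus Lost Hills, by 1.34 (limma adjusted p = 0.00863).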

How the results depend on the processing

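Counts below are of the 37 tested members called; those reported are 20 and 18 with age in Golden Hills and Lost Hills, 3 with tattering, 0 with cracking, 1 in each interaction, and 2 and 4 between cultivars at 91 d and 133 d. With age, a mean of at least 5 FPKM, which leaves 27 members, gave 12 and 11. Of all 13385 genes at that level, 6626 and 4700 were called. Between cultivars at 91 d the count was 1 with a pseudocount of 0.1, with a mean of at least 5 FPKM, with TPM and with only the groups compared, 0 without a filter and 4 with array weights; at 133 d array weights gave 8. With tattering array weights gave 11, and with cracking 1. Calls over all 19716 genes moved with the setting as well. Array weights called 5788 of them with tattering, 666 with cracking and 6044 between cultivars at 133 d. The reported fit called 3281, 307 and 3310. The changes in member counts thus do not set the members apart from all genes. In the split interaction TPM and quantile scaling gave 2 and array weights 5, and in the age interaction TPM gave 3 and array weights 5. Without replicate 2 of both 91 d groups cracking had 1 call, where 275 of all 19716 genes were called. The cause of these changes was not tested. Leaving out 1 library at a time gave 15 to 20 and 13 to 18 with age in Golden Hills and Lost Hills, 2 to 4 with tattering, 0 to 1 with cracking, 1 to 2 in the split and 1 in the age interaction, and 0 to 3 and 3 to 5 between cultivars at 91 d and 133 d. Of 808 values of named genes under other settings, 748 kept their direction and side of the threshold, 60 lost the call and 0 reversed. With TPM the median over all genes (log2) was -0.13 with tattering, -0.18 with age in Golden Hills, -0.11 between cultivars at 133 d, -0.10 in the split and -0.12 in the age interaction. Genes near 1 FPKM rest on few reads, and their folds are imprecise.

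Replicate numbers were taken from the labels. Deviations of same-numbered libraries correlated between -0.174 and 0.223, and in no pair of groups was every correlation over 0.1. Whether same-numbered libraries share a tree or day cannot be told from these values or the labels. Fitted on just the groups compared, a replicate block gave 13 calls with age in Golden Hills, 12 in Lost Hills, 4 with tattering, 0 with cracking, 0 and 1 between cultivars at 91 d and 133 d, 1 in the split and 0 in the age interaction. Over all 19716 genes the block gave 5858 and 3827 calls with age, 1537 with tattering and 0 with cracking. Between cultivars it gave 0 at 91 d and 765 at 133 d, and in the interactions 95 and 127. Where all genes gave 0 calls, the 0 for members says nothing about them. With the block the KCS6 age interaction had an adjusted p of 0.0752 and the KCS1 age change in Lost Hills 0.0559 (limma).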
